A study of Mus musculus with 6 samples.

Results

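The secreted Wnt inhibitors are proteins released from cells that keep Wnt signals from reaching their receptors. The set holds 10 genes chosen by name: the secreted Frizzled-related proteins Sfrp1, Sfrp2, Sfrp4, Sfrp5 and Frzb, the Dickkopf proteins Dkk1, Dkk2 and Dkk3, the Wnt inhibitory factor Wif1, and Sostdc1. They were found on the arrays through the RefSeq accession of each probe, and 11 of the 55681 probes belonged to them, 2 to Sostdc1 and 1 to each of the others. RNA was measured in tibial cartilage of C57BL/6 mice on Agilent expression arrays read in 1 colour, with 1 array per mouse. The 3 mutant mice were labelled ADAM10 flox/flox-Col2a1-Cre and the other 3 as control. The mutants carry floxed alleles of the protease gene Adam10, and Col2a1 regulatory sequence, used in the chondrocyte lineage, drives their Cre recombinase. The labels do not give the exact genotype of the controls, the age of the mice or the floxed exon.

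Wnt proteins bind Frizzled receptors together with the co-receptors Lrp5 and Lrp6, and in the canonical branch this stabilises beta-catenin, which acts with TCF and LEF factors on target genes. Secreted Frizzled-related proteins carry a domain like the Wnt-binding domain of Frizzled and, like Wif1, bind Wnt proteins themselves. Dkk1, Dkk2 and Sostdc1 act on the Lrp co-receptors. In cartilage and growing bone, the balance of Wnt signals and their inhibitors bears on whether precursor cells become chondrocytes or osteoblasts and on how fast chondrocytes mature.

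The RefSeq promoter table, on build GRCm38.p6, held 6 of the 10 genes. The 250 bases before the start of transcription are shown for Sfrp5 (chr19:42202253-42202502, minus strand), Frzb (chr2:80447397-80447646, minus strand) and Dkk1 (chr19:30549497-30549746, minus strand). Sfrp5 and Frzb are shown because they had the largest differences upward, and Dkk1 because it differed most among mice. Capitals mark matches on either strand to the TCF and LEF motif (searched in the forms CTTTGAA, or CTTTGAT, or CTTTGTA, or CTTTGTT) or to the letters TATAAA of the TATA box.
Sfrp5: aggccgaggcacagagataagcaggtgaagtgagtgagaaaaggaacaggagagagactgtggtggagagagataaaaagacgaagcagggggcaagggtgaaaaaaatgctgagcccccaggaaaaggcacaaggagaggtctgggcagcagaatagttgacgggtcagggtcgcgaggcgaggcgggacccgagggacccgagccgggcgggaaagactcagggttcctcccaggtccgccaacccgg
Frzb: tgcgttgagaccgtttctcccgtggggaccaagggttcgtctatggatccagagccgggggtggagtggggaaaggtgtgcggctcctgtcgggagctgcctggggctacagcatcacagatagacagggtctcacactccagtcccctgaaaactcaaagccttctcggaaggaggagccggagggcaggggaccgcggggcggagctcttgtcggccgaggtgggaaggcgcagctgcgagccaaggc
Dkk1: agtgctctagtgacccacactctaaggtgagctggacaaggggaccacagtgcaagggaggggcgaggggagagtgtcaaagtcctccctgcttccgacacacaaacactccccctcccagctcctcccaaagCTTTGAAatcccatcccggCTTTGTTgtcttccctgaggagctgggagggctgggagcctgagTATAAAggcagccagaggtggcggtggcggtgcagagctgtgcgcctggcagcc
The Dkk1 window held CTTTGAA beginning 117 bases before the start, CTTTGTT beginning 98 bases before it, and TATAAA beginning 54 bases before it. The motif searched for TCF and LEF was found in 1 of the 6 windows, that of Dkk1, and in 14.8% of all 32851 windows of this length. TATAAA was found in 3 of the 6, those of Dkk1, Dkk2 and Wif1, and in 12.4% of all windows, at any position and on either strand. The Dkk2 match began 32 bases before the start. The Wif1 match was on the opposite strand, 232 bases before the start. These are matches of letters, and no binding was measured.

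All 11 probes were well above background on all 6 arrays, so every gene of the set was measured in every mouse. Signals are given as log2 of the background-subtracted intensity relative to the 75th percentile of its array, a scale on which 1 unit is 2-fold. Levels can be compared between mice for 1 probe but not between probes. The 75th percentile lay between 510.3 and 631.0 intensity units in mutants and between 510.8 and 592.3 in controls. Feature Extraction, the scanner software, put the error of the single spots of these probes at 10% to 12% of their signal. Adam10 itself read 0.15, -1.70 and 0.31 in mutants 1 to 3, against 1.61, 1.58 and 1.21 in controls 1 to 3. Col2a1, the main cartilage collagen, averaged 9.97 ± 0.12 in mutants and 10.03 ± 0.07 in controls (SD, n = 3 each). All 15 genes of the chondrocyte marker list passed the detection filter, but so did all 10 of the neutrophil list and all 10 of the skeletal muscle list, so genes of other tissues were detected as well.

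In the comparison of mutant with control cartilage, which asks how Adam10 deletion in the chondrocyte lineage bears on these transcripts, none of the 10 genes passed the threshold over all features. Across 25494 features, limma called 0 (0%) at a Benjamini-Hochberg adjusted p below 0.05, and the adjusted p was 0.987 for 9 of the 10 and 1.00 for Dkk3. Sfrp5 was the only member at an unadjusted p below 0.05, where 877 features (3.44%) lay, 1.55% higher in mutants and 1.89% lower. It was also the only member whose groups did not overlap, as held for 2281 features (8.95%), 5.19% with mutants higher and 3.75% with mutants lower. By sign alone, 6 members stood above 0 and 4 below, with a median difference (mutant minus control, log2) of 0.08, against 60% of all features above 0, 40% below and a median of 0.04. No member was 2-fold apart on average, as 1.93% of features were, or 2-fold apart with an unadjusted p below 0.05, as 0.734% were.

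**Figure D1:**
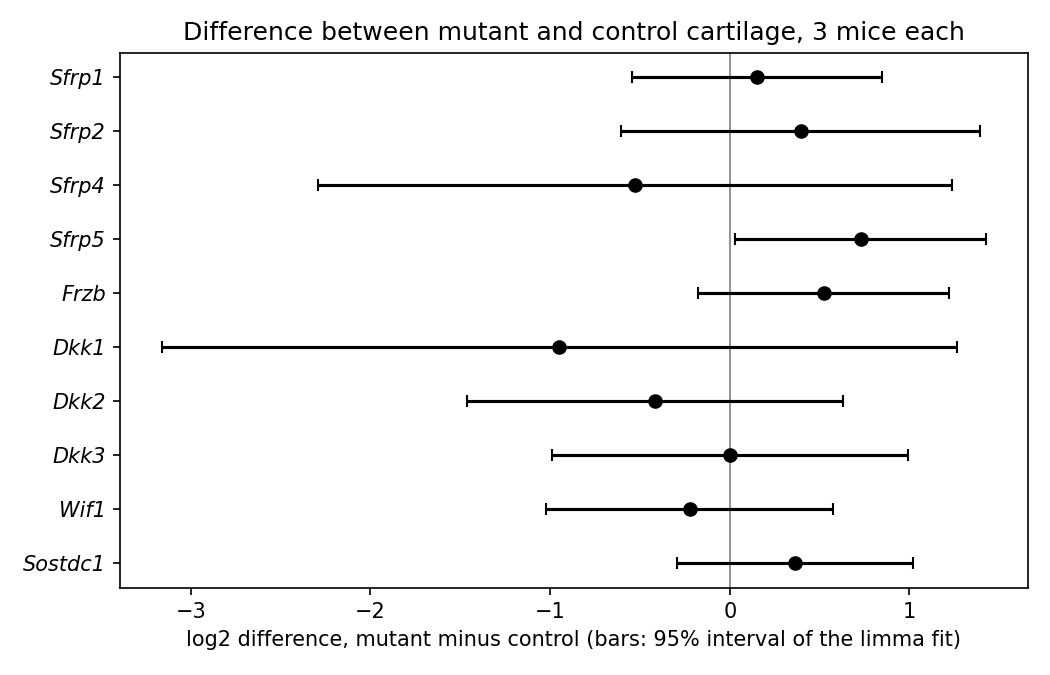
Difference in log2 signal, mutant minus control, for each gene (points), with 95% intervals of the limma fit over 3 mutant and 3 control mice (bars). The interval of Sfrp5 runs from 0.03 to 1.43 and the other 9 intervals include 0, none adjusted for the number of features.

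Sfrp5, a Wnt-binding inhibitor of the Frizzled-related family, read 5.28, 5.88 and 5.25 in mutants 1 to 3, against 4.81, 4.23 and 5.18 in controls 1 to 3. Every mutant lay above every control, but mutant 3 exceeded control 3 by little, while control 2 stood apart as the lowest mouse. The means were 5.47 ± 0.36 in mutants and 4.74 ± 0.48 in controls (SD, n = 3 each), so that Sfrp5 was 0.73 higher in mutants on the log2 scale, or 1.66-fold (SE 0.29, 95% interval 0.03 to 1.43). The limma fit gave an unadjusted p of 0.0432 and an adjusted p of 0.987, and an exact 2-sided permutation of the arrays gave p = 0.1, which no grouping of 3 and 3 can go below. With each mouse left out, the difference lay between 0.47 without control 2 and 0.95 without control 3. It could not fall to 0 there, since every mutant lay above every control. The unadjusted p was below 0.05 in 9 of the 21 alternative fits, and it was 0.126 without mutant 2 and 0.122 without control 2. Among the 4 arrays of the first slide row, mutant 1 and the 3 controls, the difference was 0.54 (unadjusted p = 0.259 in limma, with the lone mutant assumed to vary like the controls).

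Frzb, the Frizzled-related protein also called Sfrp3 and first described in cartilage, read 3.58, 4.43 and 3.52 in mutants 1 to 3, against 3.06, 3.24 and 3.67 in controls 1 to 3. Mutant 2 was highest by far, and control 3 lay above mutants 1 and 3, so the groups overlapped. The difference was 0.52 (SE 0.29, 95% interval -0.17 to 1.22), and it was 0.23 without mutant 2. Over the 6 arrays Frzb and Sfrp5 tended to be high or low together (Pearson r = 0.85, Spearman rho = 0.77). Without mutant 2 alone r was 0.71, and over the 4 arrays left without mutant 2 and control 2 it was 0.93.

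Sfrp1, another Wnt-binding family member, read 0.34, 0.80 and -0.35 in mutants 1 to 3, against 0.12, 0.00 and 0.21 in controls 1 to 3. The mutants spanned the controls on both sides. The difference was 0.15 (SE 0.29, 95% interval -0.54 to 0.85), and it was -0.12 without mutant 2. Sfrp2 read 1.07, 1.34 and 0.32 in mutants 1 to 3, against 1.32, 0.24 and -0.02 in controls 1 to 3. Control 1 stood with the 2 highest mutants, and the mean of mutants exceeded that of controls by 0.40 (SE 0.41, 95% interval -0.60 to 1.40), less than the SD of either group. It was 0.13 without control 3 and 0.18 without mutant 2, and 0.80 without control 1.

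Sfrp4, the family member known in bone for its link to cortical thickness, read 0.85, -1.43 and 1.33 in mutants 1 to 3, against 1.29, 0.91 and 0.13 in controls 1 to 3. Mutant 2 lay far below the other 5 mice, and the highest mouse was also a mutant. The difference of -0.53 (SE 0.73, 95% interval -2.29 to 1.24) turned to 0.31 without mutant 2.

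**Figure D2:**
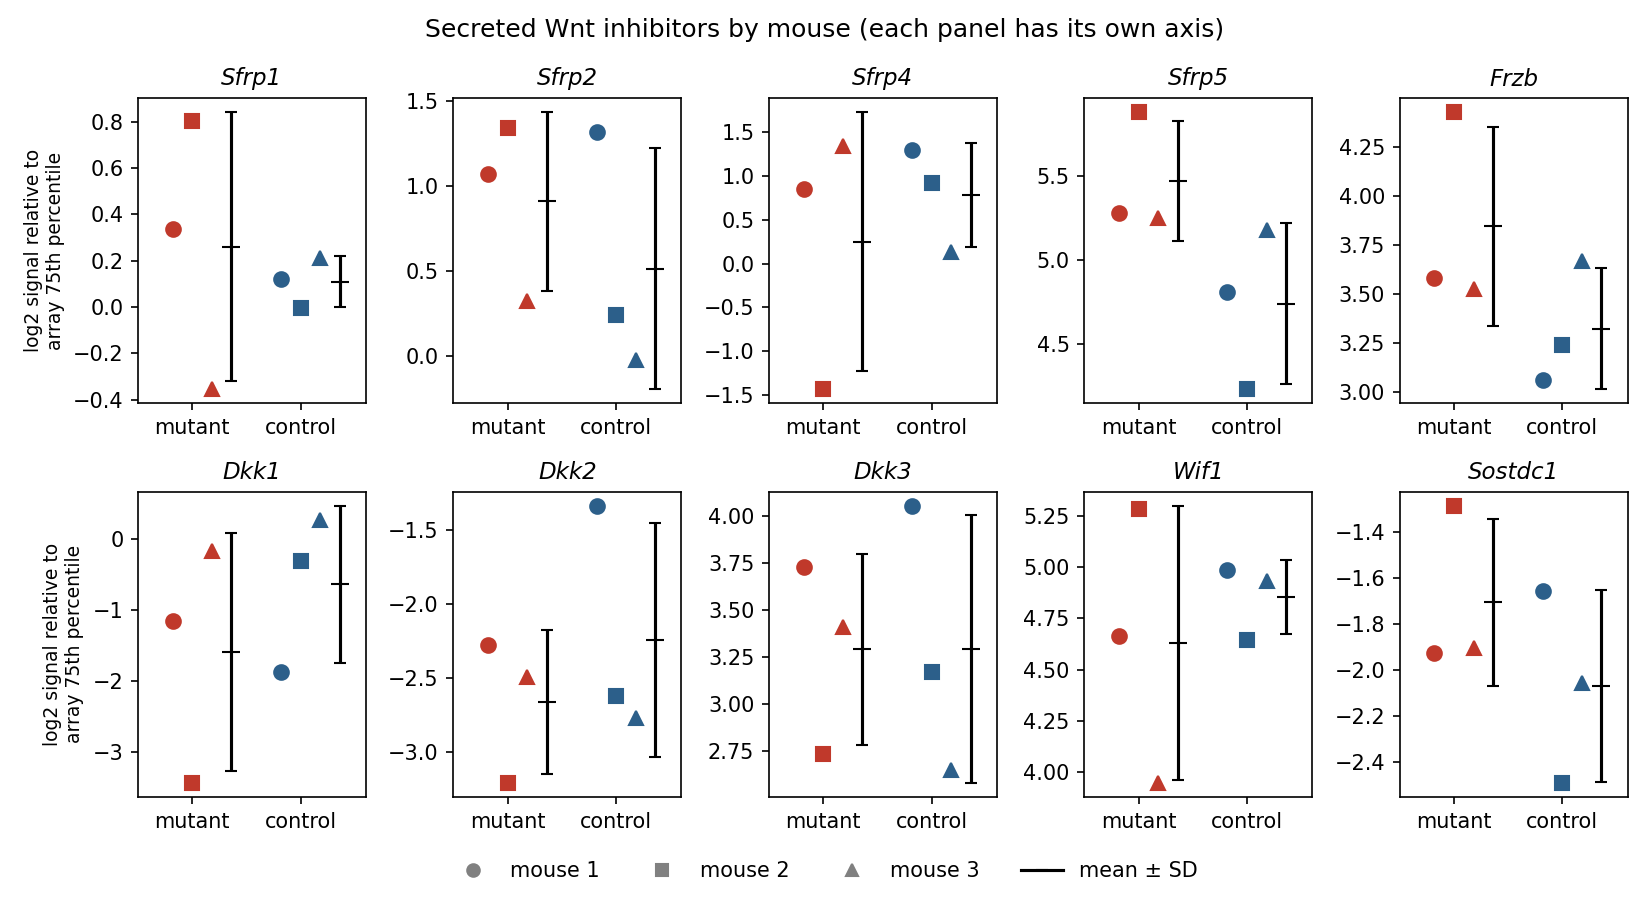
Log2 signal relative to the 75th percentile of its array for each gene, 1 point per mouse, mutants left and controls right, with mean and SD. Axes differ between panels. Only in the Sfrp5 panel do all 3 mutants lie above all 3 controls, and mutant 2 (square) is the highest or lowest mouse for 9 of the 10 genes.

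Among inhibitors that act on the Lrp co-receptors, Dkk1 varied most. It read -1.16, -3.44 and -0.18 in mutants 1 to 3, against -1.88, -0.31 and 0.26 in controls 1 to 3, a range over the 6 mice of 3.70. The low mice were mutant 2 and control 1, and the other mutants lay within the range of the controls. The difference was -0.95 (SE 0.92, 95% interval -3.16 to 1.26), and without mutant 2 it was -0.03. Its SD over the 6 arrays, 1.37, was higher than that of 99.0% of all features tested.

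Dkk2, which can inhibit or activate Wnt signalling depending on the setting, read -2.28, -3.21 and -2.49 in mutants 1 to 3, against -1.34, -2.62 and -2.77 in controls 1 to 3. Control 1 was far above the other 5 mice, and the difference of -0.42 (SE 0.43, 95% interval -1.46 to 0.63) was 0.04 without that mouse. Dkk3, a divergent family member whose part in Wnt signalling is less clear, read 3.73, 2.73 and 3.41 in mutants 1 to 3, against 4.05, 3.17 and 2.65 in controls 1 to 3. The group means were equal to the second decimal (3.29 in mutants and 3.29 in controls), with a 95% interval of the difference from -0.99 to 0.99. Leaving out 1 mouse at a time moved it between -0.32 and 0.38, and without both mutant 2 and control 1 it was 0.66. These were the lowest mutant and the highest control for Dkk3, so leaving out both could only raise the difference. The limma unadjusted p there was 0.0457 (adjusted p = 0.656), and 7.48% of all features lay below 0.05 in that fit.

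Sostdc1, a secreted protein that binds Lrp co-receptors and also BMPs, was the only gene with 2 probes. The brighter, A_55_P2151388, read -1.92, -1.28 and -1.90 in mutants 1 to 3, against -1.66, -2.49 and -2.05 in controls 1 to 3. Mutant 2 was highest and control 2 lowest, and the difference was 0.36 (SE 0.27, 95% interval -0.29 to 1.02). The other, A_55_P2158121, read -2.07, -1.72 and -2.34 in mutants 1 to 3, against -2.25, -2.56 and -2.30 in controls 1 to 3. It had the same highest and lowest mouse, and among all passing probes its difference was 0.33 (SE 0.19). Without mutant 2 the differences were 0.15 for the brighter probe and 0.16 for the other, and without control 2 they were 0.15 and 0.23.

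Wif1, which binds Wnt proteins through a domain of its own, read 4.67, 5.28 and 3.95 in mutants 1 to 3, against 4.98, 4.65 and 4.93 in controls 1 to 3. The controls lay close together and the mutants on both sides of them. The SD was 0.67 in mutants and 0.18 in controls, and the difference was -0.22 (SE 0.33, 95% interval -1.02 to 0.58). Without mutant 3 it was 0.12. Over the set, the SD was larger in mutants than in controls for 5 of 10 genes, close to the share of 53.1% over all features.

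**Figure D3:**
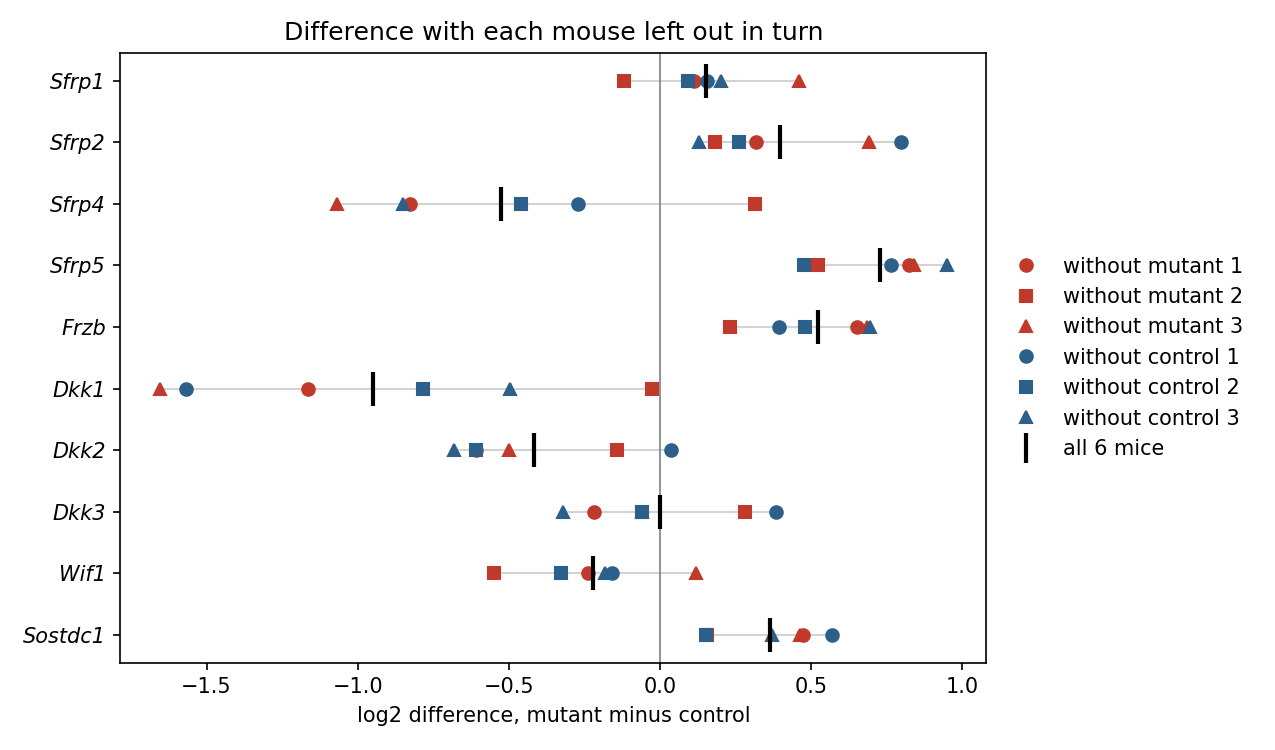
Log2 difference, mutant minus control, with each mouse left out in turn (coloured symbols) and with all 6 mice (black bars). Sfrp5 lies between 0.47 and 0.95, and it cannot cross 0 here because its groups do not overlap. Sfrp4 ranges from -1.07 to 0.31 and Dkk1 from -1.65 to -0.03, each with its highest value when mutant 2 is left out.

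The spread between mice was the main feature of these genes. All 10 had an SD over the 6 arrays above the median of all features, with a median SD of 0.55 against 0.21. Mutant 2 was the highest mouse for 6 genes (Sfrp1, Sfrp2, Sfrp5, Frzb, Wif1 and Sostdc1) and the lowest for 3 (Sfrp4, Dkk1 and Dkk2). Over all features it was the highest in 38.0% and the lowest in 18.7%. Mutant 2 also had the lowest Adam10 signal, -1.70 against 0.15 and 0.31 in mutants 1 and 3. Whether this bears on the spread was not tested. Control 1 was the highest for Dkk2 and Dkk3 and the lowest for Frzb. On the first principal component over all features, mutant 2 (71.0) and control 1 (-55.3) were also outermost, and the other 4 arrays lay between -14.0 and 15.2.

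Between genes, the 45 pairwise correlations over the 6 arrays ran from -0.92 to 0.90 with a median of 0.00, so the set did not move as 1 group. The highest was that of Dkk2 and Dkk3 (Pearson r = 0.90, Spearman rho = 0.94). For this pair r was 0.87 without mutant 2 alone, and 0.97 over the 4 arrays left without control 1 and mutant 2. Sfrp1 and Wif1 followed (r = 0.87, rho = 0.77), with r = 0.82 without mutant 2 alone and 0.01 without mutants 2 and 3. The lowest was that of Sfrp4 and Frzb (r = -0.92, rho = -0.83), and it was -0.60 without mutant 2 alone and -0.28 without mutant 2 and control 3. Sfrp2 and Dkk1 ran opposite to each other (r = -0.90, rho = -0.94), with r = -0.97 without control 3 and mutant 2. These correlations are descriptions over the same 6 arrays, which differed in their marker scores, and pairs were picked for mention by size. Where 2 arrays were left out, here and below, they were those farthest from the median of 1 side of the pair. That narrows the range, so a lower r there does not show what a relation rests on.

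Marker lists of cell types differed among the same mice. Over all features, 60% of differences stood above 0 and 40% below. Each list was scored per array by averaging how far its tested genes deviated, in log2, from their own 6-array means. Chondrocyte markers stood above 0 in 14 of 15 differences, and their score lay between -0.01 and 0.41 in mutants and between -0.37 and 0.05 in controls, highest in mutant 2 and lowest in control 1. Osteoblast and osteocyte markers were below 0 in 9 of 10 tested of 12, with scores from -1.19 to 0.29 in mutants and from -0.11 to 0.55 in controls, and the osteocyte gene Sost was at background on all arrays. Endothelial markers were below 0 in 9 of 10, with scores from -1.19 to 0.11 in mutants and from 0.12 to 0.51 in controls. Macrophage markers were below 0 in 8 of 8 tested of 10, with scores from -1.72 to 0.07 in mutants and from 0.27 to 0.78 in controls. Osteoclast markers were below 0 in 10 of 10, with scores from -1.81 to 0.09 in mutants and from 0.35 to 0.79 in controls. The scores of the marrow lists overlapped between groups, with control 3 within or below the range of the mutants. Neutrophil markers were below 0 in 9 of 10, with scores from -1.37 to -0.23 in mutants and from -0.68 to 1.86 in controls. Erythroid markers were below 0 in 8 of 8 tested of 10, with scores from -0.84 to -0.05 in mutants and from -1.23 to 1.72 in controls. B lymphocyte markers were below 0 in 8 of 8 tested of 10, with scores from -1.01 to -0.19 in mutants and from -0.65 to 1.35 in controls.

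Frzb followed the chondrocyte score (r = 0.96, rho = 1, r = 0.97 without mutant 2 and control 1, and r = 0.91 without mutant 2 alone). Frzb was as strongly tied, in the opposite direction, to the endothelial score (r = -0.96, rho = -0.77) and the macrophage score (r = -0.96). For Sfrp5 the correlation with the chondrocyte score was lower (r = 0.72, rho = 0.77) and was 0.38 without mutant 2, and its order over the mice was the reverse of the macrophage score (r = -0.88, rho = -1). Sfrp5 ran nearly as strongly opposite to the endothelial (r = -0.87), osteoclast (r = -0.83) and B lymphocyte (r = -0.83) scores. Dkk1 followed the osteoblast and osteocyte score (r = 0.96, rho = 0.83, r = 0.99 without mutant 2 and control 2, and r = 0.90 without mutant 2 alone). It also followed the hypertrophic chondrocyte score (r = 0.89) and the osteoclast score (r = 0.86). Sostdc1 ran opposite to the osteoblast and osteocyte score (r = -0.90) and the hypertrophic chondrocyte score (r = -0.89). Hypertrophic chondrocyte markers, 7 of 10 above 0, had scores from -0.38 to 0.19 in mutants and from -0.36 to 0.31 in controls, lowest in mutant 2 and control 1. The genes of that list did not move together in mutant 2: Ibsp (3.70), Mmp13 (1.96) and Spp1 (2.63) were lowest in that mouse, while Col10a1 (8.85), Ihh (6.21), Pth1r (6.88), Panx3 (5.12) and Mef2c (1.78) were highest there.

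Sfrp4 followed the adipocyte score (r = 0.98, rho = 0.94, and r = 0.84 without mutants 2 and 3). The 9 tested genes of 10 on that list had 7 differences below 0, with scores from -1.78 to 0.78 in mutants and from -0.09 to 0.66 in controls. Sfrp4 was also tied to the endothelial (r = 0.90), macrophage (r = 0.87) and skeletal muscle (r = 0.82) scores, and oppositely to the chondrocyte score (r = -0.87). The adipokine gene Lep was at background on all arrays. Dkk2 and Dkk3 followed skeletal muscle genes (r = 0.93 and 0.92), which were below 0 in 10 of 10 with scores from -2.49 to 1.35 in mutants and from -0.90 to 2.31 in controls. They also followed genes of the articular surface, synovium and tendon (r = 0.92 and 0.89), which were below 0 in 9 of 12 with scores from -0.22 to 0.22 in mutants and from -0.33 to 0.71 in controls. For Dkk2 the last relation was r = 0.98 without mutant 2 alone and 0.19 without control 1 and mutant 1. Dkk2 also ran opposite to the chondrocyte score (r = -0.92, r = -0.93 without mutant 2 alone, and r = -0.19 without mutant 2 and control 1). Relations with marker scores are descriptions over the same 6 arrays, and those named come from many pairs of gene and list. The part of cell makeup in the differences between groups was not tested, and in these bulk samples fewer cells of a type and less RNA per cell cannot be told apart.

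**Figure D4:**
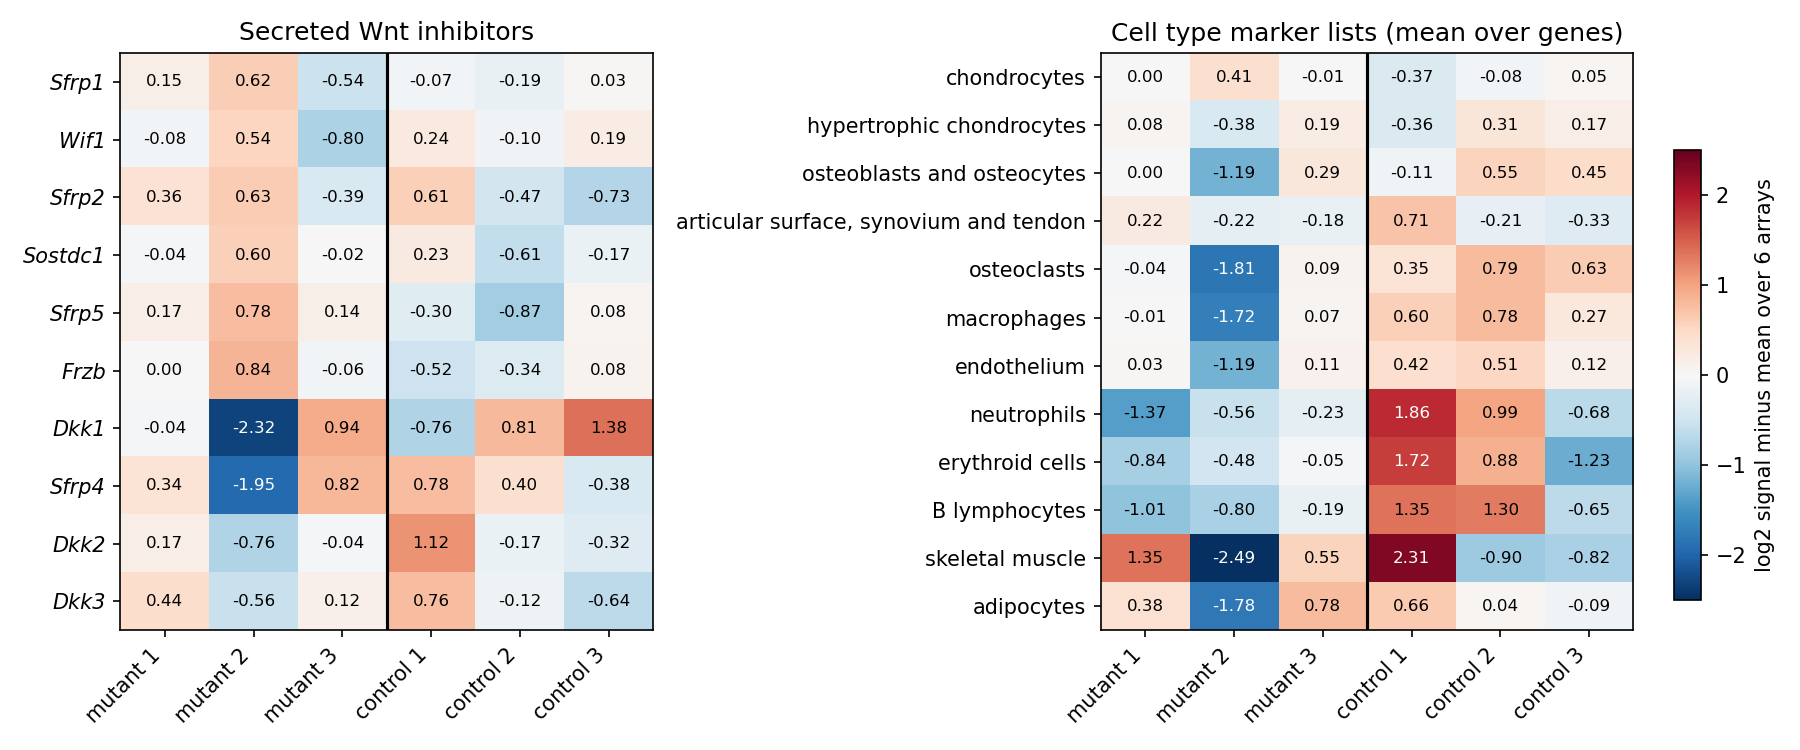
Log2 signal minus its mean over the 6 arrays, for the 10 genes (left) and as a mean over the genes of each marker list (right), with mutants left of the black line and controls right of it. Mutant 2 has the lowest Dkk1 and Sfrp4 values, the highest Frzb value, and the lowest scores for osteoblasts, osteoclasts, macrophages, endothelium, muscle and adipocytes.

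The features with a symbol whose signal was most like that of the most variable members were looked up over the 6 arrays. For Dkk1 these were Gchfr (r = 1.00), the bone sialoprotein gene Ibsp (r = 0.99) and Pstpip1 (r = 0.99). For Sfrp4 they were Apol9b (r = 1.00), Map7d1 (r = 1.00) and the connexin gene Gja5 (r = 0.99). For Dkk2 they were the growth factor gene Igf1, Coq8a and Jcad, each at r = 0.99. Of 15658 features with a symbol, 288 had r above 0.9 with Dkk1, 522 with Sfrp4 and 541 with Dkk2.

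No other gene of the Wnt pathway lists passed the adjusted threshold either. For the counts by sign below, 60% of all features stood above 0, with a median difference of 0.04. Of the Wnt ligands and the proteins that process them, 13 of 21 were tested, 8 of them above 0 with a median difference of 0.06, and none had an unadjusted p below 0.05. Wnt10a differed by 0.93 (SE 0.43), with -2.23, -3.96 and -2.89 in mutants 1 to 3 against -3.81, -3.78 and -4.26 in controls 1 to 3. Mutant 2 lay among the controls. The other ligands named by the smallest p were Wnt5b, a ligand expressed by chondrocytes, at 0.32 (SE 0.19), Wnt6 at -0.35 (SE 0.37) and Wnt10b at 0.29 (SE 0.38).

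Of 23 receptors and co-receptors, 21 were tested, 12 of them above 0 with a median of 0.02. Among them 1 had an unadjusted p below 0.05, as 3.44% of all features did. That gene was Lgr5, a receptor for R-spondins and a Wnt target, at -0.60 (SE 0.22, limma unadjusted p = 0.0315, adjusted p = 0.987), with values of -2.83, -3.22 and -2.56 in mutants 1 to 3, against -2.03, -2.23 and -2.55 in controls 1 to 3. The groups did not overlap, but mutant 3 and control 3 were almost level. Znrf3, an enzyme that removes Frizzled receptors from the surface, differed by 0.28 (SE 0.13), and the receptors Ror2 and Ryk by 0.38 (SE 0.21) and 0.23 (SE 0.14). The groups did not overlap for 3 of the 21 tested receptors, against 8.95% of all features, with mutants higher for Znrf3 and Ryk and lower for Lgr5.

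Of 14 R-spondins and other extracellular modulators, 9 were tested, 5 of them above 0 with a median of 0.05. Dkkl1, a relative of the Dickkopf genes, was the only one at an unadjusted limma p below 0.05 (0.0437), as 3.44% of all features were. Its difference was -0.56 (SE 0.23), and its groups overlapped. Ndp differed by 0.32 (SE 0.17), Igfbp4 by -0.35 (SE 0.18) and Rspo3 by 0.27 (SE 0.15). Only for Rspo3 did the groups not overlap, as held for 8.95% of all features. All 16 genes of the intracellular pathway were tested, 14 of them above 0 with a median of 0.09, and none had an unadjusted p below 0.05. The smallest p-values were those of Pygo1 at 0.29 (SE 0.15), Apc at -0.19 (SE 0.13), Dvl1 at 0.17 (SE 0.12) and Dvl2 at 0.22 (SE 0.17). Pygo1 alone of this list had all mutants above all controls, as 5.19% of all features had.

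Of 20 Wnt target genes, 18 were tested, 10 above 0 with a median of 0.04. An unadjusted p below 0.05 held for 2, Lgr5 and Ccn5, against 3.44% of all features. The list shares Dkk1 with the inhibitors, Lgr5, Znrf3 and Rnf43 with the receptors, and Notum and Apcdd1 with the extracellular modulators. Ccn5, also known as Wisp2, read -0.76, -1.65 and -0.42 in mutants 1 to 3, against -0.28, 0.45 and 0.25 in controls 1 to 3. Its difference was -1.09 (SE 0.35, limma unadjusted p = 0.0199, adjusted p = 0.987), with mutant 2 lowest and all mutants below all controls. Its relative Ccn4 differed by -0.29 (SE 0.13). The groups did not overlap for 5 of the 18 tested targets, against 8.95% of all features. Mutants were lower for Lgr5, Ccn5 and Ccn4 and higher for Znrf3 and Lef1, and Lgr5 and Znrf3 were already counted among the receptors. Lef1, a TCF and LEF family factor named outside the rule after its values were seen, differed by 0.29 (SE 0.14). Axin2, a general target of canonical Wnt signalling named here outside the rule, read -1.88, -1.97 and -2.30 in mutants 1 to 3, against -2.17, -2.10 and -2.02 in controls 1 to 3, a difference of 0.04 (SE 0.15, 95% interval -0.31 to 0.40).

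**Figure D5:**
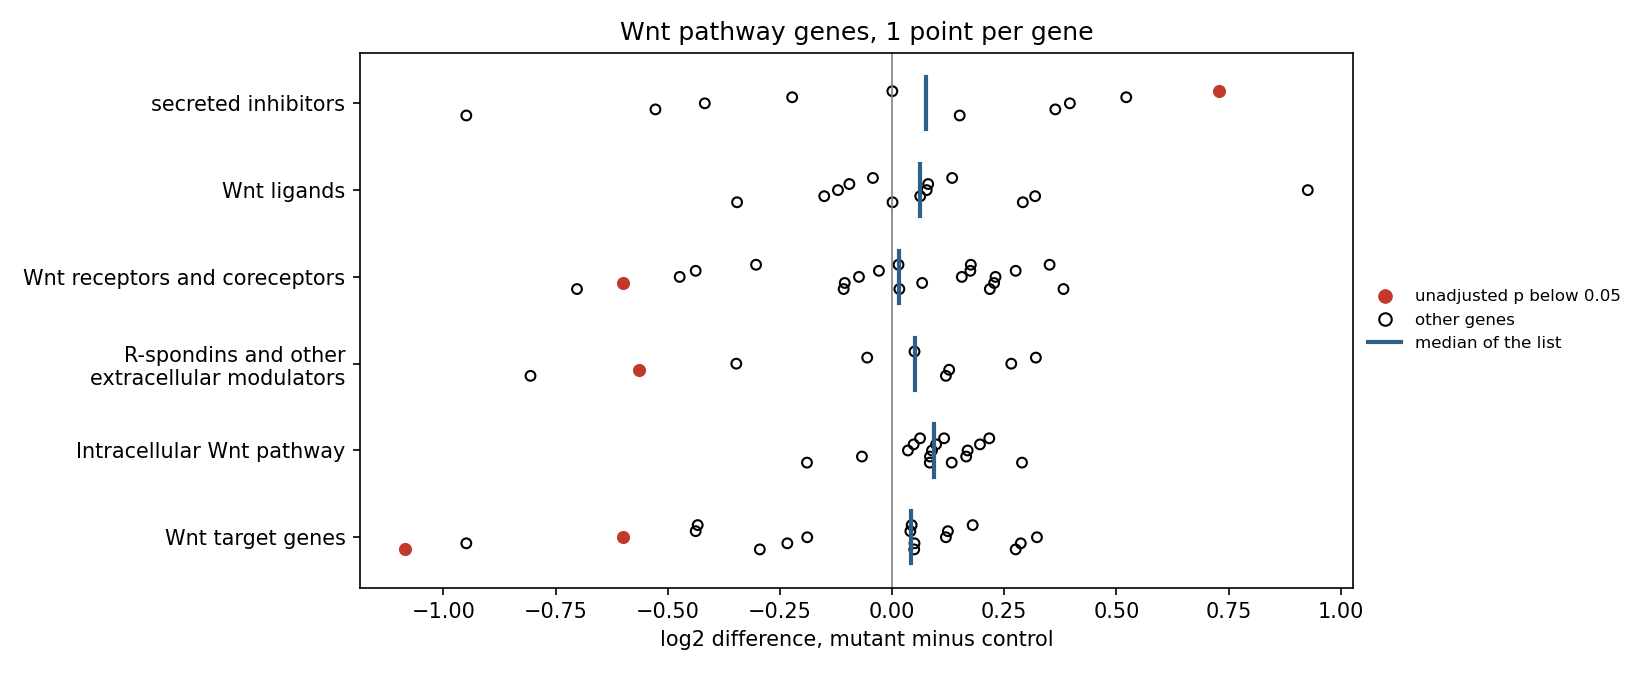
Log2 difference, mutant minus control, for each tested gene (points) of the secreted inhibitors and of 5 other groups of Wnt pathway genes, with the median of each group (blue line). Filled points have an unadjusted p below 0.05: Sfrp5 above 0, and Lgr5 (drawn in 2 groups), Dkkl1 and Ccn5 below 0.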

How the data were processed

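Each of 3 mutant and 3 control mice, grouped and numbered by the sample titles, gave 1 array. Per the file headers, the deposited spot values are intensity readings made with Feature Extraction 10.7.1.1 of Agilent: a background-subtracted processed signal, and the median brightness of spot and local background, none normalized between arrays. Per the file headers the design refers to build mm9. In the value table that the authors deposited, each entry is a linear ratio, with the 75th percentile at 1 on every array (column medians 0.094 to 0.104), and how it was made is not given in the sources used here. The linear scale was read from the correlation of its log2 entries with the log2 processed signal (r = 1.00). Centring was read from the 75th percentile of each column.

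Control spots and outlier spots were left out, the log2 processed signal was set relative to the 75th percentile of its array, and spots of a probe were averaged. Accessions were matched to the RefSeq table of GRCm38.p6 (27656 of 55681 probes). Probes had to be marked well above background by the scanner software on 3 or more arrays, and each gene took its probe of highest mean signal, giving 25494 features. The comparison of mutant with control arrays used lmFit and eBayes of limma 3.58.1 under R 4.3.3 (2-sided, 6.42 total degrees of freedom) with Benjamini-Hochberg adjustment and a threshold of 0.05, tested on simulated data. Named genes are all members, up to 4 of each Wnt list by smallest p, and the 3 features most correlated with each of the 3 most variable members. Normexp used the median spot signal, since that column was at hand in place of the mean planned. The members and lists were chosen with earlier results of these data known. The number of arrays limits the precision. All arrays lay on 1 slide, with mutant 1 and the 3 controls on row 1 and mutants 2 and 3 on row 2. Slide row and group were thus partly confounded.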

Additional observations from a re-analysis of the deposited data

How the results depend on the processing

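No member passed an adjusted p below 0.05 in any of the 21 alternative fits, and the lowest adjusted p was 0.248, for Sfrp5 with array weights. Of 210 differences recomputed for the 10 genes, 191 kept their sign and 19 did not. Sfrp2, Sfrp5, Frzb, Dkk1 and Sostdc1 kept theirs in all 21. Dkk1 ran from -2.27 on the 4 arrays with Y-linked signal to -0.03 without mutant 2. Sfrp2 ran from 0.13 without control 3 to 1.09 on the arrays with Y-linked signal (limma unadjusted p = 0.00348, adjusted p = 0.840). Some of the 21 fits could not change a sign. Changing the filter on dim probes, adding a variance trend or blocking on the replicate number left every member difference as it was. Averaging the passing probes changed that of Sostdc1 alone. The slide row block and the first row alone gave identical differences. With mice left out, Sfrp5 could not lose its sign, since its groups did not overlap. The Dkk3 difference, 0.00 as reported, was -0.0072 with normexp and quantile normalization, -0.050 with quantile normalization alone and -0.0085 in the deposited value table. It moved further the other way, to 0.49 with array weights, 0.44 with the slide row as a block and 0.66 without mutant 2 and control 1 (limma unadjusted p = 0.0457), the only member at an unadjusted p below 0.05 there. Sfrp4 was at 0.018 with array weights, at 0.073 with the slide row as a block, at 0.073 in the first row alone and at 0.57 without mutant 2 and control 1. Dkk2 was at 0.20 with array weights and at 0.31 without mutant 2 and control 1, where Sfrp1 was at -0.11. Wif1 was at 0.18 on the 4 arrays with Y-linked signal (mutants 1 and 2, controls 2 and 3). In mutant 3 and control 1 the X-linked Xist read 2.05 and 1.88, and the Y-linked Ddx3y -4.57 and -7.34. By these transcripts the mice were not all of 1 sex, and the part of sex was not tested. Leaving out 1 mouse at a time gave -0.12 to 0.46 for Sfrp1, -1.07 to 0.31 for Sfrp4, -0.68 to 0.037 for Dkk2, -0.32 to 0.38 for Dkk3 and -0.55 to 0.12 for Wif1. Members at an unadjusted p below 0.05, 1 as reported, numbered 0 with quantile normalization, 0 without the filter on dim probes and 0 with the slide row as a block. They numbered 3 with array weights (Sfrp2, Sfrp5 and Sostdc1), where 15.6% of all features lay below 0.05. On arrays with Y-linked signal they numbered 2 (Sfrp2 and Dkk1), where 5.24% of all features did, against 3.44% as reported. With 1 mouse left out they numbered 0 to 1. The median member difference was 0.39 on arrays with Y-linked signal, and -0.05 to 0.29 with 1 mouse left out. Features at an unadjusted p below 0.05 numbered 1362 without the filter, 3985 with array weights, 479 with the row block, 1335 on arrays with Y-linked signal, 1906 without mutant 2 and control 1, and 506 to 1151 with 1 mouse left out. Those also 2-fold apart, 187 as reported, numbered 68 with normexp and the 75th percentile, 52 with normexp and quantile normalization, 491 without the filter, 123 where every array had to be above background, 540 with array weights, 358 on arrays with Y-linked signal, 370 without mutant 2 and control 1, and 86 to 398 with 1 mouse left out. Array weights gave 4 adjusted calls over all features, none of them a member. The causes were not tested. Mice sharing a number were not shown to be paired: their deviations from the group means correlated at 0.21, 0.06 and -0.16. Blocking on the replicate number (replicate block), members at an unadjusted p below 0.05 numbered 0, and Sfrp5 kept a difference of 0.73 (limma unadjusted p = 0.0934). With 3 mice a group, the 95% intervals of the member differences were 1.31 to 4.43 wide on the log2 scale, which limits what could be detected.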
